A study of Arabidopsis thaliana with 22 samples.

Results

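FHL and HYH are 2 light signalling genes of Arabidopsis thaliana, and their levels were followed over 8 groups of genotype and light. They were chosen by their gene symbol in the platform's annotation, and each has 1 probe set on the Affymetrix ATH1 array, for FHL that of locus AT5G02200 and for HYH that of locus AT3G17609. These are 2 of 13513 probe sets with 1 named gene, among 22746 tested. Each of the 22 arrays holds RNA of whole seedlings, 4 days old, of the accession Ler (Landsberg erecta, which carries a mutant ERECTA gene in all groups). The quintuple mutant phyABCDE lacks phytochromes A to E, the quadruple mutant phyABDE keeps only phytochrome C, and wild type (WT) has all of them. Each mutant has 3 arrays of dark-grown seedlings, 2 arrays after darkness and then 2 h of red light (DR2h), and 3 arrays of growth in continuous red light (R50, 50 µmol per square metre and second). WT has 2 R50 and 4 dark arrays, and WT after DR2h is not analysed here. All seeds had 4 days of cold imbibition and 3 h of white light before growth, so dark-grown seedlings had seen light at germination. A safe green light of 1 µmol per square metre and second is also given for all samples. The titles call the arrays of a group biological replicates. The p-values measure the spread of arrays within groups, pooled over all 8 groups, so those of WT rest on the mutant arrays too. For each gene this spread is also drawn toward that typical of all probe sets tested. How many seedlings went into each array is not stated in the labels.

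Phytochrome A is made in darkness and works in the nucleus, but it cannot enter the nucleus alone. FHY1 and its homologue FHL bind the light-activated form of phytochrome A and carry it there. The transcription factors FHY3 and FAR1 switch on FHY1 and FHL, and HY5 acts against them on the same genes. HYH is the closest relative of HY5. Both are bZIP transcription factors that promote seedling greening and restrain stem growth in light, and in darkness both are marked for degradation by the ubiquitin ligase COP1. The partner of FHL, phytochrome A, is missing from both mutants and present in WT.

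Values are log2 of the deposited probe set intensity unless intensity units are stated, and a difference was called at an adjusted p under 0.05 in limma, a linear model fitted across all probe sets. By the series text the RNA of 5 WT arrays (both R50 arrays and dark replicates 2 to 4) went through the One-cycle kit, and that of WT dark replicate 1 and all mutants through the 3' IVT Express kit, so the model held a term for the kit. The median intensity of an array lay between 40.2 and 44.9 units. No detection calls are given, and both genes are dim: averaged over arrays, FHL stood at percentile 42.5 of all tested probe sets and HYH at percentile 35.2. Dim levels are therefore not shown to be above background.

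In WT, FHL was 3.87-fold lower and HYH 4.14-fold higher under continuous red light than in darkness. FHL had 3.14 and 3.05 on the R50 arrays, against 5.24, 4.98 and 4.93 on the dark arrays of the same kit and 4.90 on the dark array of the other kit. Both R50 arrays lay far below every dark array. In intensity units these were 8.84 and 8.27 under R50 against 29.9 to 37.8 in darkness, and the gene moved to percentiles 23.5 and 20.02 of its array under R50 against 44.2 to 48.0 in darkness. The log2 change was -1.95 ± 0.14 (SE, 95% interval -2.25 to -1.66), with a limma adjusted p of 3.43e-09. It ranked 201 among 22746 probe sets ordered from the largest fall. With an offset of 16 intensity units before the logarithm the change was -1.002, still called.

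HYH, the bZIP factor, had 5.95 and 5.70 on the WT R50 arrays, against 3.94, 3.60 and 3.79 on the dark arrays of the same kit and 4.49 on the other. All dark arrays were lower than both R50 arrays, and the array labelled with the 3' IVT Express kit was the highest of the dark ones. Intensities were 62.0 and 52.0 units under R50 against 12.1 to 22.5 in darkness. HYH rose by 2.05 ± 0.18 (95% interval 1.68 to 2.42), with a limma adjusted p of 4.56e-08, the rise in place 269 of 22746. With the offset of 16 it was 1.29 and was called too. Of all 22746 probe sets, 27.5% passed this test, 13.7% upward and 13.8% downward, so a call in WT is common, and light and dark arrays did not overlap for 37.2%.

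**Figure D1:**
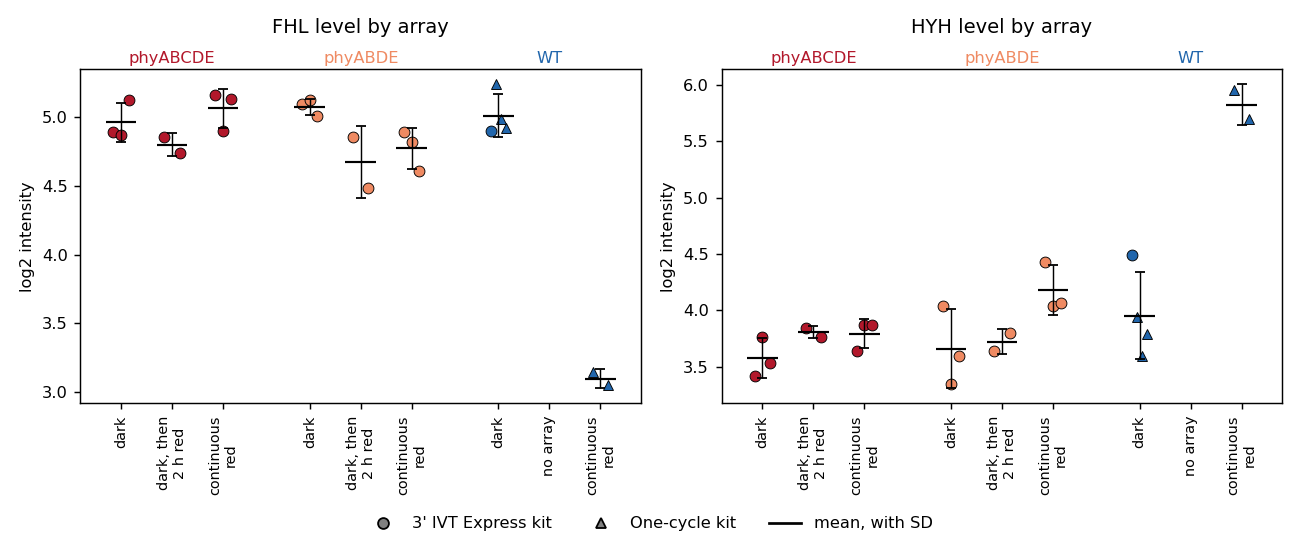
Log2 intensity of FHL (left panel) and HYH (right panel) on each array, by genotype and light; points are arrays, circles the 3' IVT Express kit and triangles the One-cycle kit, and bars give the mean and SD. The 2 WT R50 arrays stand apart from the other 20 in both panels, low for FHL (3.05 and 3.14) and high for HYH (5.70 and 5.95).

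The 6 leaf markers and 2 root hair genes measured, of 7 and 6 listed, were higher under R50 in WT. The level of the 3 seed markers measured overlapped. The mean level of 6 cotyledon and leaf photosynthesis markers was 12.3 to 12.4 under R50 against 10.5 to 10.9 in darkness, and that of the root hair genes EXPA7 and EXPA18 was 5.23 to 5.44 against 3.55 to 4.61. For 3 seed and embryo markers (M10, LEA4-5 and LEA76, of 22 listed) it was 6.43 to 7.11 against 4.57 to 6.82. These 3 do not stand for all seed genes. In this comparison the oleosin gene OLEO3 had -5.06 and EEL, a bZIP factor of late seed development, -2.41. The actin 3' minus 5' signal, a sign of RNA quality, was 3.31 to 3.45 against 3.03 to 3.21. The part of these in the changes of FHL and HYH was not tested, except that both changes were called with the seed marker level in the model (FHL -1.89, HYH 2.24). In RNA of whole seedlings, fewer cells of a type and less RNA per cell cannot be told apart.

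In phyABDE, where phytochrome C is the remaining phytochrome, both genes had values in the direction of WT, but neither passed the test. FHL had 4.89, 4.82 and 4.61 on the R50 arrays, against 5.09, 5.12 and 5.01 on the dark arrays. Every R50 value was below every dark value, which in this comparison holds, in one direction or the other, for 18.6% of all probe sets. The difference was -0.30 ± 0.12 (95% interval -0.56 to -0.041, limma adjusted p = 0.35), place 1620 from the largest fall. The differences within replicate numbers 1, 2 and 3, R50 minus dark, were -0.20, -0.31 and -0.40.

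HYH in phyABDE had 4.43, 4.04 and 4.06 under R50, against 4.04, 3.35 and 3.60 in darkness. The lowest R50 array and the highest dark array were level, and the other dark arrays were lower. The difference was 0.52 ± 0.16 (95% interval 0.18 to 0.85, limma adjusted p = 0.20), or 1.43-fold, place 412 from the largest rise. The differences within replicate numbers 1, 2 and 3 were 0.40, 0.69 and 0.46. Here 0.145% of probe sets were called, 33 in all, and neither member was among them. The GAPDH 3' minus 5' signal ranged from 0.074 to 0.53 on the R50 arrays against 0.12 to 0.18 on the dark arrays of phyABDE. The leaf marker level was 10.8 to 11.2 on the R50 arrays against 10.3 to 10.7 on the dark arrays, and the part of either was not tested.

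In phyABCDE, without any phytochrome, FHL had 5.17, 4.90 and 5.13 under R50, against 4.89, 4.87 and 5.12 in darkness, and both sets of arrays overlapped. The difference was 0.10 ± 0.12 (95% interval -0.16 to 0.37, limma adjusted p = 0.98). HYH had 3.64, 3.87 and 3.87 under R50, against 3.42, 3.77 and 3.54 in darkness, which also overlapped. Its difference was 0.22 ± 0.16 (95% interval -0.11 to 0.55, limma adjusted p = 0.94), with 0.22, 0.11 and 0.33 within replicate numbers 1 to 3. In phyABCDE 0.00879% of probe sets were called, and arrays of both groups did not overlap for 10.3%. The leaf marker level was 10.4 to 10.6 under R50 against 10.02 to 10.4 in darkness. The intervals leave room for a fall of FHL by 0.16 and a rise of HYH by 0.55 on the log2 scale, and neither reaches the size seen in WT.

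**Figure D2:**
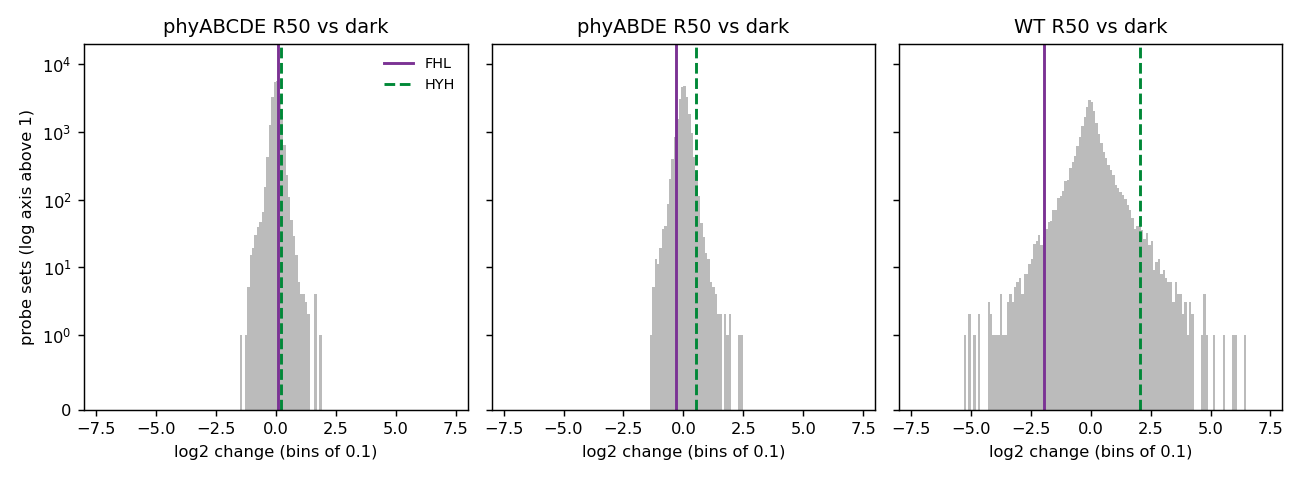
Number of probe sets (vertical, log axis above 1) by log2 change of continuous red light against darkness, in bins of 0.1, for phyABCDE, phyABDE and WT; the solid line marks FHL and the dashed line HYH. In WT the lines stand in opposite tails at -1.95 and 2.05, and in phyABCDE both lie near the centre at 0.10 and 0.22.

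The test of the difference between genotypes found the response of both genes smaller in either mutant than in WT. For FHL the R50 response differed by 2.06 ± 0.19 (phyABCDE minus WT, 95% interval 1.67 to 2.45, limma adjusted p = 2.72e-07) and by 1.65 ± 0.19 (phyABDE minus WT, 1.26 to 2.04, limma adjusted p = 4.86e-06). A positive value here means a smaller fall in the mutant. For HYH the differences were -1.83 ± 0.24 (phyABCDE minus WT, -2.33 to -1.33, limma adjusted p = 2.06e-05) and -1.53 ± 0.24 (phyABDE minus WT, -2.03 to -1.03, limma adjusted p = 1.63e-04), a smaller rise in the mutant. Of all probe sets 17.2% were called for phyABCDE minus WT, 8.90% positive and 8.27% negative, and 13.6% for phyABDE minus WT, 6.65% positive and 6.97% negative. Both tests share the WT arrays. The WT response was measured with one kit and the mutant responses with the other, so a kit that alters how large a change reads cannot be told apart from genotype here. With the offset of 16 the differences of FHL were 1.07 and 0.80 and those of HYH -1.19 and -1.04, all 4 called.

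Between the mutants the responses of neither gene were shown to differ. The R50 response of FHL differed by 0.41 ± 0.18 (phyABCDE minus phyABDE, 95% interval 0.036 to 0.78, limma adjusted p = 1.00) and that of HYH by -0.30 ± 0.23 (-0.77 to 0.18, limma adjusted p = 1.00). In this comparison limma called 0 of 22746 probe sets, and 899 had an unadjusted p under 0.05. The intervals do not show that the mutants respond alike: for FHL the values leave room for a fall in phyABDE that is larger by up to 0.78.

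**Figure D3:**
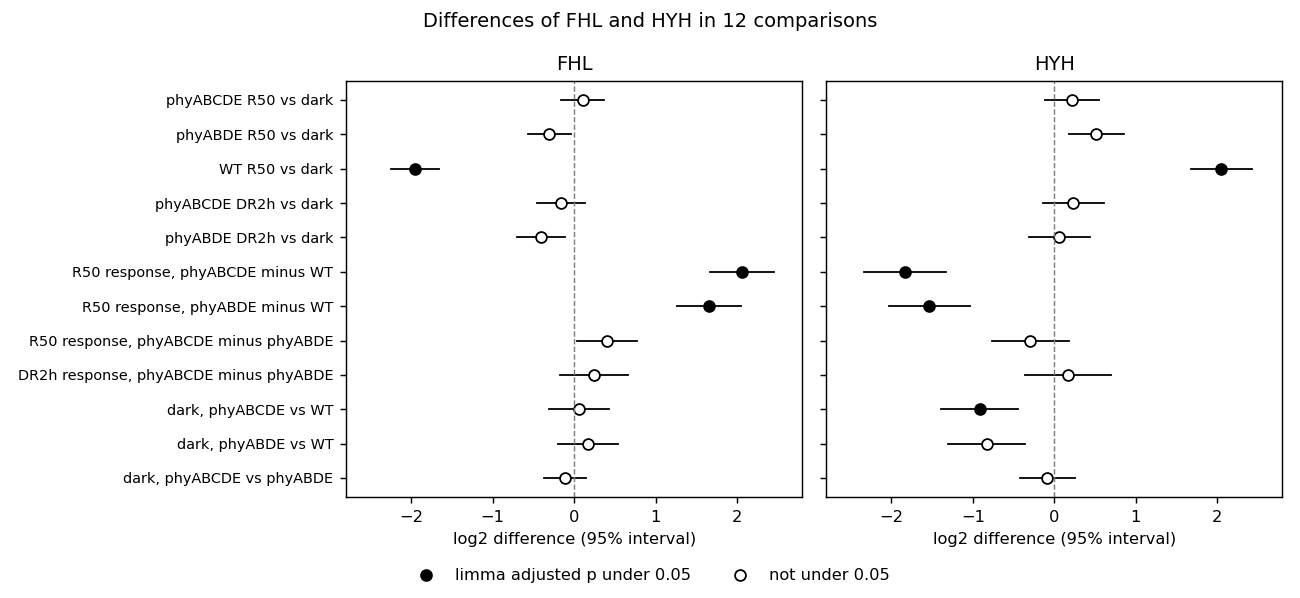
Log2 difference with its 95% interval for FHL (left panel) and HYH (right panel) in each of 12 comparisons, filled where the limma adjusted p is under 0.05. FHL and HYH are filled for WT R50 and for both mutant responses minus WT, on opposite sides of 0, and HYH also for phyABCDE against WT in darkness (-0.91).

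After 2 h of red light no change of either gene was called. In phyABDE, FHL had 4.86 and 4.49 after 2 h, against 5.09, 5.12 and 5.01 in darkness, a difference of -0.40 ± 0.14 (95% interval -0.70 to -0.11, limma adjusted p = 1.00), place 304 from the largest fall. Both arrays were below the dark ones, and light and dark arrays of phyABDE did not overlap, in either direction, for 21.5% of probe sets. The seed and embryo marker level was 8.84 to 9.01 after 2 h in phyABDE, against 6.43 to 8.78 in darkness, and with it in the model the FHL difference was -0.35. The second DR2h array had the lowest FHL value of any mutant array. The mean FHL level of phyABDE was 5.08 in darkness, 4.67 after 2 h and 4.77 under R50, so the value after 2 h was no higher than that after 4 days. HYH in phyABDE had 3.64 and 3.80 after 2 h, inside the dark range, with a difference of 0.062 ± 0.18 (limma adjusted p = 1.00), and its mean was 3.66 in darkness, 3.72 after 2 h and 4.18 under R50. In phyABDE 0.00440% of probe sets were called after 2 h.

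In phyABCDE, FHL had 4.86 and 4.74 after 2 h, against 4.89, 4.87 and 5.12 in darkness, a difference of -0.16 ± 0.14 (95% interval -0.45 to 0.13, limma adjusted p = 0.90), with no overlap, as for 24.6% of probe sets. HYH had 3.85 and 3.77, against 3.42, 3.77 and 3.54, a difference of 0.23 ± 0.18 (-0.14 to 0.61, limma adjusted p = 0.89). Of all probe sets 0.0176% were called. The 2 h responses of the mutants differed by 0.24 ± 0.20 for FHL and 0.17 ± 0.25 for HYH (phyABCDE minus phyABDE, limma adjusted p = 1.00 for both). The lower DR2h array and the highest dark array of phyABCDE were level for HYH, at 3.77.

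In darkness the FHL ranges of all genotypes overlapped, and HYH was lower in phyABCDE than in WT by a call that rests on a single WT array. FHL had 4.89, 4.87 and 5.12 in phyABCDE and 5.09, 5.12 and 5.01 in phyABDE, against 4.90 to 5.24 in WT. With the kit term the differences from WT were 0.060 ± 0.18 (phyABCDE, 95% interval -0.31 to 0.43) and 0.17 ± 0.18 (phyABDE, -0.20 to 0.54), with limma adjusted p of 0.92 and 0.79. HYH had 3.42, 3.77 and 3.54 in phyABCDE and 4.04, 3.35 and 3.60 in phyABDE, against 4.49 on the WT array of the same kit and 3.60 to 3.94 on the other WT arrays. Since the kit term for HYH was -0.71 (One-cycle minus 3' IVT Express), the model sets both mutants against that 1 array.

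On this basis HYH was lower in dark phyABCDE, at -0.91 ± 0.23 (95% interval -1.39 to -0.44, limma adjusted p = 0.028), where 3.60% of all probe sets were called and 1.70% were lower. In phyABDE the difference was -0.83 ± 0.23 (-1.30 to -0.36, limma adjusted p = 0.11), with 0.805% called. The call in phyABCDE was lost without the kit term (-0.38), with the seed marker level in the model (-0.41), with only the compared arrays (-0.91, adjusted p = 0.076), and without dark replicate 1 (-0.84) or 3 (-0.89) of phyABCDE. That in phyABDE was gained without its dark replicate 1 (-1.02). Without WT dark replicate 1 no value can be had. The level of the seed and embryo markers was 9.24 to 9.85 in dark phyABCDE and 6.43 to 8.78 in dark phyABDE, against 4.57 to 6.82 in dark WT. The part of seed material in the HYH difference was not tested beyond that fit. Between the mutants in darkness FHL differed by -0.11 ± 0.12 and HYH by -0.086 ± 0.16 (phyABCDE minus phyABDE, limma adjusted p = 0.80 and 0.90), with 2.33% of probe sets called.

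Ordered by mean level as deposited, where dark WT joins arrays of both kits, FHL stood highest in dark phyABDE (5.08 ± 0.06, SD, n = 3), followed by R50 phyABCDE (5.07 ± 0.14, n = 3), dark WT (5.01 ± 0.15, n = 4), dark phyABCDE (4.96 ± 0.14, n = 3), DR2h phyABCDE (4.80 ± 0.08, n = 2), R50 phyABDE (4.77 ± 0.15, n = 3), DR2h phyABDE (4.67 ± 0.26, n = 2) and R50 WT (3.10 ± 0.07, n = 2). Neighbours in this order overlapped, except the last pair, with a gap of 1.58, and dark against DR2h phyABCDE, with a gap of 0.16. For HYH the order was R50 WT (5.83 ± 0.18, n = 2), R50 phyABDE (4.18 ± 0.22, n = 3), dark WT (3.95 ± 0.38, n = 4), DR2h phyABCDE (3.81 ± 0.05, n = 2), R50 phyABCDE (3.80 ± 0.13, n = 3), DR2h phyABDE (3.72 ± 0.11, n = 2), dark phyABDE (3.66 ± 0.35, n = 3) and dark phyABCDE (3.58 ± 0.18, n = 3). Only the first pair was apart, by 1.65, and all later neighbours overlapped.

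Across the 20 arrays other than the WT R50 ones, FHL and HYH were not shown to be related. Pearson's r was -0.22 (permutation test, two-sided p = 0.35) and Spearman's rho -0.24 (p = 0.30), and no other relation across arrays was tested. These arrays join several groups and both kits, with levels as deposited, so differences between groups and kits enter both values. Without the 2 arrays farthest from the median of FHL, DR2h replicate 2 of phyABDE and dark replicate 2 of WT, r was -0.36. A pooled value over all 22 arrays is not given, since the WT R50 arrays form a cluster of their own.

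**Figure D4:**
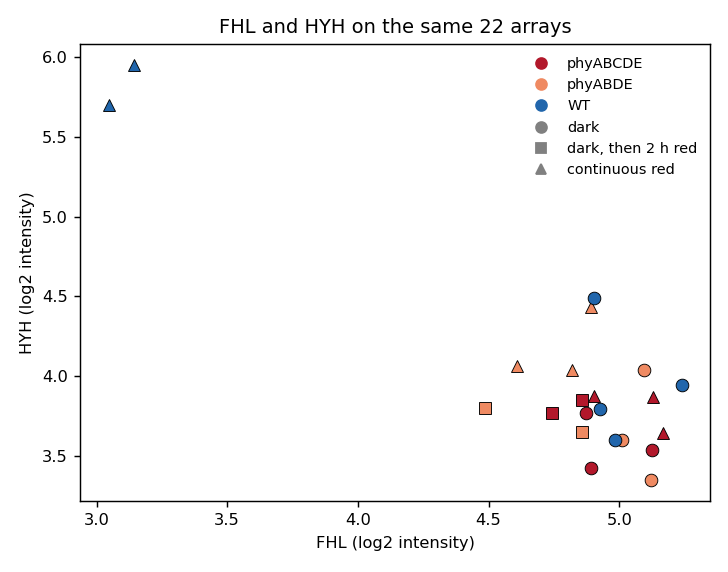
HYH against FHL, both as log2 intensity, on each of 22 arrays; colours mark the genotype and shapes the light. The 2 WT R50 arrays lie alone at low FHL and high HYH, and the other 20 form one cloud with r of -0.22.

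The surrounding pathway could be followed only in part. Of 88 listed genes of phytochrome import, HY5 partners, COP and signalosome repressors, phytochrome-interacting factors, photoreceptors and HY5 targets, 5 have a named probe set, FHL, HYH and 3 others. FHY1, HY5, FHY3, FAR1 and COP1 are not analysed here. DFR, an anthocyanin enzyme gene that HY5 activates, was called in WT under R50, at 0.80 ± 0.17 with a limma adjusted p of 0.0011, while it had -0.073 ± 0.15 in phyABCDE and 0.034 ± 0.15 in phyABDE, not called. Its response differed from WT by -0.88 ± 0.22 in phyABCDE and -0.77 ± 0.22 in phyABDE, both called. DFR lost its WT call without R50 replicate 1 of WT (0.50) and with the replicate block (0.54), where the differences were not called either (-0.57 and -0.61 for phyABCDE, -0.46 and -0.51 for phyABDE). With the seed marker level in the model they were -0.68 and -0.60, not called, and the difference for phyABDE kept its call in 11 of 21 alternatives. AFR, an F-box protein of phytochrome A signalling, had 0.55 ± 0.19 in phyABCDE, 0.58 ± 0.19 in phyABDE and 0.41 ± 0.21 in WT, and CSN5B, a subunit of the COP9 signalosome, -0.0078 ± 0.16, 0.20 ± 0.16 and -0.30 ± 0.18. Neither was called in any of these 3 comparisons.

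A wider list of 14 light and clock genes, AFR and CSN5B among them, was taken from the annotation with the data already open. In WT under R50, 4 of the 14 fell and 0 rose, where 13.8% of all probe sets fell and 13.7% rose, and the median was -0.12 against -0.020 over all probe sets. The number called is near the 27.5% called over all probe sets. IAA29 and HAT2, genes of shade growth, had changes of -2.89 ± 0.18 and -1.76 ± 0.12, LSH9, of the LIGHT-DEPENDENT SHORT HYPOCOTYLS family, -1.38 ± 0.27, and SPT, the bHLH factor SPATULA, -1.35 ± 0.22. The clock genes GI, TIC, XCT, LIP1 and FIO1 had values between -0.28 and 0.19 and were not called. In the mutants limma called 0 of 14 under R50, where it called 0.00879% of all probe sets in phyABCDE and 0.145% in phyABDE (1291 and 2635 had an unadjusted p below 0.05), so nothing is read from this count. All 4 had smaller responses in each mutant than in WT, called in both tests, LSH9 by 1.35 ± 0.36 (phyABCDE minus WT) and 1.17 ± 0.36 (phyABDE minus WT) and SPT by 1.19 ± 0.30 and 1.37 ± 0.30. These 4 were picked by their called fall in WT, and the same fall enters both tests. That all 4 were called is therefore no separate result. LSH9 lost both calls without R50 replicate 1 of WT (1.28 and 1.10) and with the seed marker level in the model (0.97 and 0.84), and kept that for phyABDE in 9 of 22 alternatives. SPT lost the call for phyABCDE without R50 replicate 2 of WT (0.86).

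HYH belongs to the bZIP family, of which 16 other members have an annotated symbol, a list likewise taken with the data already open. Under R50 in WT, 1 of the 16 rose and 4 fell, with a median of -0.27 against -0.020 over all probe sets, and this number of calls is also near the 27.5% over all probe sets. EEL, a bZIP factor of late seed development, had -2.41 ± 0.38, bZIP52 -1.24 ± 0.14, BZIP61 -0.91 ± 0.26 and bZIP44 -0.82 ± 0.17, and bZIP58, the 1 that rose, 0.36 ± 0.13. Among these and the 11 uncalled members, which lay between -0.37 and 0.30, HYH had the largest rise, at 2.05. bZIP58 kept its call in 6 of 15 alternatives, and leaving out either R50 array of WT (number 1, 0.43, number 2, 0.30) or the dark arrays numbered 2 (0.28) or 4 (0.34) ended it, while BZIP61 was not called when WT dark number 4 (-0.69) or R50 number 1 (-0.51) was left out or with the replicate block (-0.079). In the mutants limma called 0 of the 16 under R50, against the shares of 0.00879% and 0.145% given above. EEL was higher in dark phyABCDE than in dark WT by 2.65 ± 0.48 (limma adjusted p = 0.0028), where 3.60% of all probe sets were called. With the kit term this comparison too rests on WT dark replicate 1 alone. The 3 seed and embryo markers had a median difference of 3.21 there. Under R50 in WT, where EEL fell, the median change of these markers was 1.29, with 0 called, so no common course is read from them.

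The genes next to FHL and HYH on the chromosome were read in the gene order of the RefSeq assembly TAIR10.1. Of 3 protein-coding genes on each side, 4 around FHL and 3 around HYH have a named probe set. Around FHL, R50 in WT gave -0.69 for AT5G02170, 1.06 for AT5G02180 and -0.88 for AT5G02230, all called, and -0.23 for the adjoining AT5G02210, which was not. Around HYH, AT3G17590, AT3G17600 and AT3G17620 had -0.040, 0.028 and 0.034, none called. With 27.5% of all probe sets called in WT and so few neighbours, the values are a description, and the genes around FHL were not tested against those around HYH. In the mutants limma called 0 of the 7 under R50, where 0.00879% (phyABCDE) and 0.145% (phyABDE) of all probe sets were called.

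Genes of like pattern were sought by Pearson's r over the 8 group means of the model, among 2392 other probe sets with 1 gene whose means spanned at least 1 on the log2 scale. These points share arrays and the kit term, by which the dark WT point is that of WT dark replicate 1 alone. Since r also rests mainly on the WT R50 group, it is a description. Closest to FHL were AT1G27030 (r = 0.992), AT4G16670 (0.991), AT3G49350 (0.991), AT4G30060 (0.989) and AT5G02580 (0.989), and most opposite were MSRB6, a methionine sulfoxide reductase gene (-0.987), AT1G75880, AT2G20250, AT4G15660 and AT1G79510 (-0.986 to -0.985). Closest to HYH were AT5G47610 (0.997), SLY2, an F-box gene (0.995), AT1G19620 (0.993), AT5G44580 (0.993) and AT5G48790 (0.992), and most opposite were rpl22, a ribosomal protein gene (-0.995), AT4G16770, AT2G35820, the subtilase gene ATSBT5.2 and AT4G25390 (-0.986 to -0.980). AT5G47610 resembled HYH in size as well, with 0.21 in phyABCDE, 0.50 in phyABDE and 2.14 in WT under R50. Such patterns were common over the group means: 264 probe sets reached r of at least 0.95 with HYH and 86 with FHL. FHL and HYH themselves had r of -0.95 over these means. By r over all 22 arrays, 0 probe sets reached 0.95 with HYH and 5 with FHL. By that measure, 2 of the 5 closest genes of FHL and 0 of the 5 of HYH were the same.

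**Figure D5:**
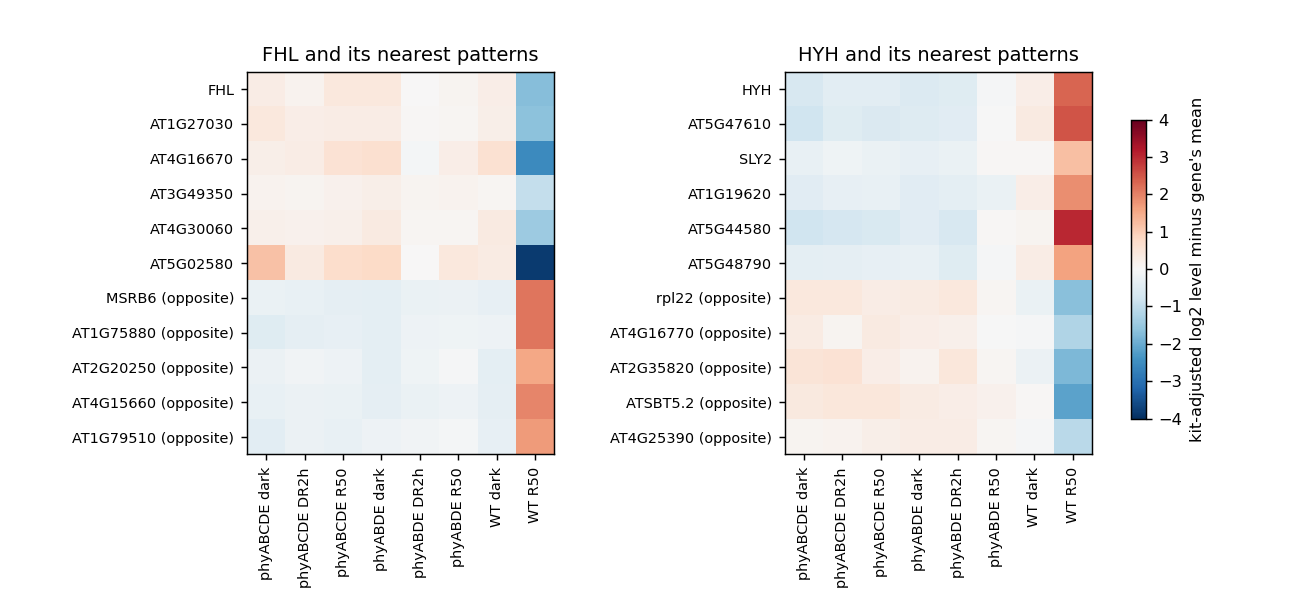
Level of FHL (left panel), HYH (right panel) and the 5 genes most like and 5 most opposite to each, as log2 level after the kit term minus the gene's mean over groups, in colour, for 8 groups in columns. The WT R50 column differs from all others for every gene shown. Among the mutant columns AT5G02580 varies most, with levels of 7.76 (phyABDE DR2h) to 8.92 (phyABCDE dark).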

How the data were processed

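RNA of 22 seedling samples was measured on Affymetrix ATH1 arrays. The deposited table holds linear intensity values per probe set with near-equal array medians. Per the submitters' processing notes, RMA, GCOS and limma were used, and how each was applied is unstated. Here 64 control probe sets were left out and log2 of the deposited intensity was fitted over 22746 probe sets with limma 3.58.1 (R 4.3.3; lmFit, eBayes), with means for 8 groups and a kit term (13 residual degrees of freedom), Benjamini-Hochberg adjusted in each of 12 comparisons and tested on simulated data. The number of arrays limits precision: the 95% half-width of an R50 change was 0.26 for FHL and 0.33 for HYH in a mutant. Gene names come from GEO's platform table, and 8730 tested probe sets are unnamed here. The sample labels name the 3' IVT Express kit for all arrays; the series text was followed.

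The members, the lists and the tests were chosen with earlier results of these data known. Named genes were both members, listed pathway genes called under R50 in WT or in a mutant comparison, and the 5 most alike and 5 most opposite in pattern. AFR, CSN5B, OLEO3, the uncalled clock genes, the neighbouring genes and those of the 2 lists taken with the data open were named after their values were seen. The titles do not state whether equal replicate numbers pair dark with light arrays. Deviations from the group means correlated by 0.33, 0.12 and 0.25 for R50 in phyABCDE and 0.48, 0.18 and 0.11 in phyABDE. For R50 in WT they correlated by 0.15 and 0.080. After 2 h the values were 0.089 and -0.19 in phyABCDE and 0.051 and -0.22 in phyABDE. Such values do not establish pairs, and unlike numbers were not compared. Equal replicate numbers entered the fit only as the replicate block. Alternatives were the kit term, a replicate block, the arrays fitted, array weights, an offset of 16, quantile normalization, the probe sets kept, the seed marker level and each replicate left out. Plots used Python 3.11.15 and matplotlib 3.10.9.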

Additional observations from a re-analysis of the deposited data

Results flagged for a closer look

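The responses of both genes to continuous red light differed between genotypes by the test of the difference itself. For FHL this was 2.06 in phyABCDE and 1.65 in phyABDE, each minus WT on the log2 scale, and for HYH -1.83 in phyABCDE and -1.53 in phyABDE. Every WT array of R50 lay outside the range of all mutant arrays for both genes. No array of dark WT stood far enough from the others of its group to be singled out, though HYH on dark replicate 1 (4.49) was the highest.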

How the results depend on the processing

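Of 394 repeats of the FHL and HYH results under other settings, 377 kept their direction and their side of the threshold, among them every repeat of the R50 response in WT and of its difference from both mutants. Some repeats could not move an estimate, so the tally is no measure of strength. Without WT dark replicate 1 the WT responses stayed at -1.95 and 2.05, since the kit term takes up that array. Without the kit term the R50 estimates within the mutants stayed as they were. With the replicate block, which changed no call of FHL or HYH among the light responses and their differences, the WT responses were -2.19 and 1.76. With only the groups compared, the WT responses had limma adjusted p of 8.64e-05 (FHL) and 9.11e-05 (HYH). The blocks lie within a genotype, so dark comparisons between genotypes could not be fitted with them. HYH in dark phyABCDE against WT was not called without the kit term (-0.38), with only the groups compared (-0.91) or with the seed marker level as a covariate (-0.41), and ranged from -1.01 to -0.84 with 1 replicate left out. In dark phyABDE against WT it was called without dark and R50 replicates 1 of phyABDE (-1.02), and ranged from -1.02 to -0.67 with 1 left out. Values near 0 that turned, none called, were FHL in dark phyABCDE against WT (-0.051 without the kit term, -0.021 to 0.11 with 1 replicate left out) and HYH after 2 h in phyABDE (-0.10 to 0.25 with 1 left out). So did the HYH 2 h response of phyABCDE minus phyABDE (-0.036 with the seed covariate, -0.017 without dark and R50 replicates 1 of phyABDE, -0.017 to 0.33 with 1 left out) and HYH in dark phyABCDE against phyABDE (0.18, 0.10, and -0.24 to 0.10 in the same settings). BZIP61 turned to -0.31 with the replicate block in the R50 response of phyABDE minus WT. The causes were not tested. Called probe sets ranged over the alternatives from 0 to 3 for R50 in phyABCDE (2 in the fit reported), 4 to 120 in phyABDE (33) and 3180 to 6248 in WT (6245), from 1 to 26 and 0 to 6 after 2 h in phyABCDE (4) and phyABDE (1), and from 1923 to 4057 and 1543 to 3190 for the R50 response minus WT (3906 and 3097). In darkness they ranged from 91 to 5562 and 61 to 4441 against WT (819 and 183) and from 201 to 661 between the mutants (529). The brighter 50% of probe sets hold neither gene, so that filter gave no value for them, and without WT dark replicate 1 the mutants could not be set against dark WT. Both genes are dim, so the log2 size of their changes depends on the offset, which shrinks any change by arithmetic. In WT under R50 an offset of 16 gave -1.002 for FHL and 1.29 for HYH, against -1.95 and 2.05 without it.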
